A study of Mus musculus with 4 samples.

Results

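The Kruppel-like factors are zinc finger transcription factors, and 10 of their genes were followed here in mouse macrophages: Klf2, Klf3, Klf4, Klf6, Klf7, Klf9, Klf10, Klf11, Klf13 and Klf16. They were picked by gene symbol and make up 10 of the 55536 annotated genes. The choice was made with levels in these data known, and the 7 Klf genes outside it were all low, as given further down. RNA came from the cytosolic fraction of bone marrow-derived macrophages of C57BL/6J mice, primary cells grown out of marrow, that had met 100 ng/ml lipid A for 15 minutes. Lipid A, the fatty end of lipopolysaccharide from bacterial outer membranes, is sensed by Toll-like receptor 4. The 4 libraries are ribosome-depleted total RNA and form 1 group, labelled as biological replicates 1 to 4. All 4 carry the same donor record, and nothing in the labels ties a replicate to its own animal or culture. The p-values therefore reflect spread among 4 libraries that may differ only technically. The labels give no sex or age. Unstimulated cells and the nuclear fraction were not analysed here, so all values are levels after stimulation, not responses to it.

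A Kruppel-like factor binds GC-rich DNA, the GC box and CACCC elements, through zinc fingers at its C-terminal end. The rest of the protein differs between members and decides which partners are recruited. Klf2, Klf4, Klf6 and Klf7 are known mainly as activators that draw in acetyltransferases such as p300. Klf3 is a repressor that recruits the C-terminal binding proteins CtBP1 and CtBP2. Klf9, Klf10, Klf11, Klf13 and Klf16 bind the corepressor Sin3A, which brings histone deacetylases. In macrophages, Klf2 is known for restraining inflammatory activation, Klf4 for monocyte differentiation and alternative activation, and Klf6 for promoting inflammatory gene expression.

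The libraries held 30088678 to 47961117 expected counts on annotated genes, with replicate 1 the shallowest. A count of 0 allows up to 0.0939 CPM, a count scaled to the library's size by TMM, in replicate 1 and up to 0.0624 CPM in replicate 4, the extremes of the 4 libraries, from counting error only. The macrophage identity of the samples was plain in the markers: all 10 macrophage markers averaged at least 1 TPM, a length-corrected abundance, and their sum lay between 5368 and 8743 TPM. None of 6 T cell, 5 B cell and 6 stromal markers averaged 1 TPM. Of 6 endothelial markers 2 did, Vwf and Kdr, while the defining markers Pecam1, Cdh5 and Emcn averaged 0.255, 0.260 and 0.038 TPM and Tek had 0 or 1 count a library. The endothelial sum was 11.2 to 23.0 TPM, the neutrophil sum 1.81 to 4.87 TPM and the erythroid sum 1.22 to 2.37 TPM. Of these last 2 lists only Ngp, a neutrophil marker, and Epor, an erythroid one, averaged 1 TPM, at 2.32 and 1.78 TPM. The neutrophil sum was highest in replicate 3. There Ngp had 313 counts, against 69, 178 and 127 in replicates 1, 2 and 4, and Mpo 67, against 15, 25 and 21. By counts Camp and Ly6g were highest in replicate 2, and Elane had 12 in both. T cell markers summed to 0.09 to 0.28 TPM and B cell markers to 0.70 to 1.21 TPM. The stromal sum was 1.51 TPM in replicate 3, against 0.14, 0.11 and 0.04 TPM in replicates 1, 2 and 4, and Col1a1, a collagen gene of fibroblasts, had 111 counts there, against 5, 12 and 3. Of 5 stromal markers tested, 5 had an unadjusted p under 0.05 in replicate 3 and 0 were called by edgeR or DESeq2. Those test results of the stromal markers are for replicate 3 only. Bulk RNA cannot tell fewer cells of a type from less RNA per cell, here or in any value below.

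Promoter sequence, 250 bases before to 50 after the start, was found in RefSeq (GRCm38.p6, the assembly also called mm10) for 8 of the 10 members, Klf10 and Klf16 being the other two. The sequences of Klf7, Klf9, Klf11 and Klf13 are shown because these members were called as different in 1 library (below), and that of Klf6 because it was the most abundant member. Each is written 5′ to 3′ on the gene's strand. Capitals mark every match, on either strand, to the GC box GGGCGG or to CACCC, the 2 elements these factors bind. On the minus strand, the window of Klf7 lies at chr1:64121340-64121639 and that of Klf13 at chr7:63938866-63939165. On the plus strand, that of Klf9 lies at chr19:23140976-23141275, that of Klf11 at chr12:24651121-24651420 and that of Klf6 at chr13:5861239-5861538. The Klf7 window lies wholly inside the gene whose counts are used here, chr1:64029447-64122282, which starts further upstream. Its motifs and GC content may therefore not describe the sequence before that start.
Klf7: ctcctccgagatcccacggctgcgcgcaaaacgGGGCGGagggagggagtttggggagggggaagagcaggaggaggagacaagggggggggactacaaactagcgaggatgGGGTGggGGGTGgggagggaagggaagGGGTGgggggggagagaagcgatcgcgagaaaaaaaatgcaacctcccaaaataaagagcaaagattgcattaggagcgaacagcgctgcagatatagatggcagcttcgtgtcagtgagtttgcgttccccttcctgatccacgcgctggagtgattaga
Klf9: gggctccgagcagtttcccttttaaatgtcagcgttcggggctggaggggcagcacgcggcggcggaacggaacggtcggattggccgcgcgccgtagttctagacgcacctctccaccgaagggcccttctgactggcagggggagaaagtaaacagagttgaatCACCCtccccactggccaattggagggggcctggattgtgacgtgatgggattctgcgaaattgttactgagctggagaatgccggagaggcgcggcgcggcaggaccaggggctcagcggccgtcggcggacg
Klf11: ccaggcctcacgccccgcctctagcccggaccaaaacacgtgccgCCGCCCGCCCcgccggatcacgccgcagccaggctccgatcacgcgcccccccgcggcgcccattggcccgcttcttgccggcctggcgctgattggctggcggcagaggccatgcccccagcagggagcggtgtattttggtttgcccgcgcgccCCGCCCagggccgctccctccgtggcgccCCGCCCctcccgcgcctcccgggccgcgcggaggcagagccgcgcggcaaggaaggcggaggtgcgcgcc
Klf13: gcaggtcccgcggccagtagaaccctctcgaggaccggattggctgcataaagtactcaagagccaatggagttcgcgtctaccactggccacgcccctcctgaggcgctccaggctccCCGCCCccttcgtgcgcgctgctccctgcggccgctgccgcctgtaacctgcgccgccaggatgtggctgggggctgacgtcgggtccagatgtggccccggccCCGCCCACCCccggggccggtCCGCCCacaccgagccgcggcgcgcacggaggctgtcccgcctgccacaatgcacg
Klf6: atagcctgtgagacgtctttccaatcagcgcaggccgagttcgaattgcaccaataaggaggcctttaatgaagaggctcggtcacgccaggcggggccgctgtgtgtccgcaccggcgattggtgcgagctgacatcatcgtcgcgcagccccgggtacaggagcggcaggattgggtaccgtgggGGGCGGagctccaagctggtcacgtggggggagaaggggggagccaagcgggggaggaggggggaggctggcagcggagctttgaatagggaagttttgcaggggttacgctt
In the 8 windows, GGGCGG was found in 7, all but that of Klf9, against 35.7% of 32851 RefSeq promoters of the same length. Klf3 held 6 matches, Klf4 and Klf11 4 each, Klf13 3, Klf2 2, and Klf6 and Klf7 1 each. CACCC was found in 5 of 8 windows, against 57.5% of all promoters, with 5 matches in Klf3, 3 in Klf7 and 1 each in Klf2, Klf9 and Klf13. In the Klf13 window a GC box and a CACCC overlap, and in the Klf11 window a pair of GC boxes, so the capitals run together there. The GC content of the 8 windows ran between 58.3% and 77.7%, against a median of 52.7%, and a GC-rich window holds GC-rich motifs more often. The CCAAT box was in 4 windows, those of Klf6, Klf9, Klf11 and Klf13, against 37.4% of promoters. TGACG, the shorter core of the cyclic AMP response element, was in 5 windows (20.8% of promoters), and the whole site TGACGTCA in 0 (1.79%). TATAAA (13.6%) and the CArG box (1.63%) were in 0 of the 8. The MEF2 site was searched only as a fixed string without alternative letters, which was in 0 of the 8 (0.164% of promoters). Variants of that site were not counted in either set. Whether a window, that of Klf2 included, holds a MEF2 site was therefore not tested. A match describes letters only and is not a shown binding site.

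In the gene tables the 10 members spanned a wide range of levels, with Klf6 far above the rest. Of the 10, 8 averaged at least 1 TPM, and Klf4 and Klf9 fell just below, at 0.825 ± 0.207 and 0.985 ± 0.271 TPM (SD, n = 4). The summed level of the members was 116, 88.8, 92.4 and 134 TPM in replicates 1, 2, 3 and 4.

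Among the activators, Klf6 (ENSMUSG00000000078.7, chr13:5861482-5870394, plus strand, mm10) had 55.5, 41.5, 44.5 and 64.5 TPM in replicates 1, 2, 3 and 4, a mean of 51.5 ± 10.5 TPM. In the gene tables even its lowest library stood above every library of every other member. Klf2 (ENSMUSG00000055148.7, chr8:72319033-72321656, plus strand), which also keeps endothelium and T cells quiescent, had 7.70, 5.70, 6.81 and 9.57 TPM. Replicate 4 was highest and replicate 2 lowest, and the mean was 7.45 ± 1.64 TPM. Klf7 (ENSMUSG00000025959.13, chr1:64029447-64122282, minus strand), best known for its part in neuron development, had 4.16, 1.36, 1.78 and 2.77 TPM. Here replicate 1 was highest and the mean was 2.52 ± 1.24 TPM. Klf4 (ENSMUSG00000003032.8, chr4:55527143-55532466, minus strand), also one of the reprogramming factors that make pluripotent cells, had 0.92, 0.73, 0.59 and 1.06 TPM from 124, 191, 126 and 197 expected counts. It was detected in every library but reached 1 TPM only in replicate 4.

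The CtBP-binding repressor Klf3 (ENSMUSG00000029178.14, chr5:64803388-64832901, plus strand) had 14.3, 11.99, 11.0 and 16.9 TPM in replicates 1, 2, 3 and 4, a mean of 13.6 ± 2.66 TPM. In every library it ranked just below Klf6 and Klf13, and no library stood far from the rest.

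Among the Sin3A-binding members, Klf13 (ENSMUSG00000052040.10, chr7:63886351-63938915, minus strand), which activates the chemokine gene Ccl5 in T cells, was the most abundant with 14.6, 15.8, 15.1 and 22.8 TPM and a mean of 17.1 ± 3.85 TPM. Its first 3 libraries lay close together and replicate 4 stood above them. Klf10 (ENSMUSG00000037465.10, chr15:38291463-38300706, minus strand), an early gene of the transforming growth factor beta pathway, had 12.2, 6.95, 7.39 and 10.4 TPM and a mean of 9.22 ± 2.49 TPM. Klf16 (ENSMUSG00000035397.8, chr10:80567124-80577321, minus strand) had 5.26, 2.55, 2.68 and 3.10 TPM, with replicate 1 highest, and a mean of 3.40 ± 1.26 TPM. Klf11 (ENSMUSG00000020653.12, chr12:24651274-24662789, plus strand), another gene of the transforming growth factor beta pathway, had 1.03, 1.32, 1.62 and 1.81 TPM, lowest in replicate 1. Klf9 (ENSMUSG00000033863.2, chr19:23141226-23168134, plus strand), a gene induced by glucocorticoid and thyroid hormone, had 0.72, 0.86, 1.01 and 1.35 TPM, also lowest in replicate 1. In TPM, 7SL RNA genes took 57.1% to 63.3% of every library's total, so a member's TPM also moves with that share. With those genes left out of the total, Klf9 and Klf4 averaged 2.44 and 2.03 TPM and all members were above 1 TPM.

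**Figure D1:**
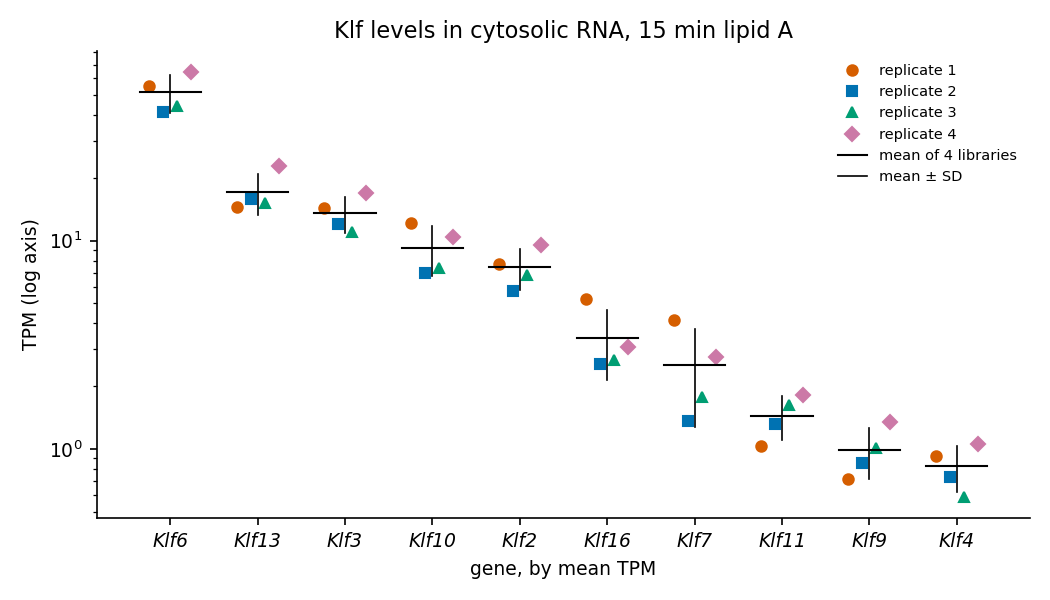
Level of each of the 10 Kruppel-like factor genes in TPM on a log axis, with 1 point for each of the 4 replicates, a horizontal bar at the mean and a vertical bar for ± SD. Klf6 lies highest, with a mean of 51.5 TPM, and Klf4 lowest, with 0.825 TPM.

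Ordered by mean TPM, the family ran Klf6, Klf13, Klf3, Klf10, Klf2, Klf16, Klf7, Klf11, Klf9 and Klf4. Within a library, 8 of the 9 neighbouring pairs stood in this order in all 4 libraries. The exact two-sided sign-flip permutation test cannot give a p below 0.125 with 4 libraries, and those 8 pairs reached it, so none could pass 0.05. The widest step was that of Klf6 over Klf13, a mean difference of 1.54 ± 0.22 in log2(TPM + 1) (SD, n = 4), followed by Klf2 over Klf16, 0.96 ± 0.37. Klf11 over Klf9 was a small step of 0.30 ± 0.07 that hardly varied. Klf7 over Klf11 was 0.47 ± 0.61, no larger than its spread, and Klf9 over Klf4 was 0.12 ± 0.21, which held in 3 of 4 libraries (exact p = 0.375). Those pairs of neighbours did not differ beyond their spread. In the second set of transcript tables, here called target tables, the order was Klf6, Klf10, Klf13, Klf3, Klf2, Klf7, Klf16, Klf11, Klf9 and Klf4, and 5 of the 9 pairs of the first order held in every library. Klf10 and Klf7 moved up, and both had short isoforms that held more counts in the target tables, described below. In replicate 4 Klf10 even stood above Klf6 there, at 27.9 against 22.9 TPM.

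To compare libraries for 1 gene, counts were scaled to CPM by TMM factors, which are meant to reduce the differences in composition that TPM keeps. Some results depended on the scaling, as given further down. On that scale Klf3 and Klf6 had some of the smallest SDs of all genes tested. The SD also depends on how many counts a gene has, and no comparison with genes of like abundance was made. Klf3 had 104.6, 112, 106 and 111 CPM in replicates 1, 2, 3 and 4, an SD of 0.044 in log2 CPM, smaller than in all but 2.09% of the 14041 genes tested. Klf6 had 327, 333, 351 and 326 CPM, an SD of 0.050 (percentile 3.01). Klf2, with 18.7, 18.9, 22.7 and 21.5 CPM, and Klf4, with 3.88, 4.14, 3.36 and 4.10 CPM, both had an SD of 0.137 (percentiles 24.8 and 24.9). At the other end stood Klf7, with an SD of 0.492 (percentile 73.8), Klf11 with 0.464 (71.9), Klf9 with 0.407 (67.7) and Klf16 with 0.369 (64.3). The median SD of the 10 members was 0.199, beside 0.255 over all 14041 genes, whose quartiles were 0.138 and 0.513. The 19 immediate early genes that could be tested, the class that stimulated macrophages switch on first, had a median SD of 0.671 and ran between 0.201 and 2.06, a range that overlaps that of the members, and the difference was not tested.

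Beyond counting noise, 9 of the 10 members varied between libraries in a Poisson deviance test adjusted over all genes, where 82.8% of all genes did. The members' share was thus near the background. Klf4 was the exception, with an adjusted p of 0.271 at 124 to 197 counts a library.

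**Figure D2:**
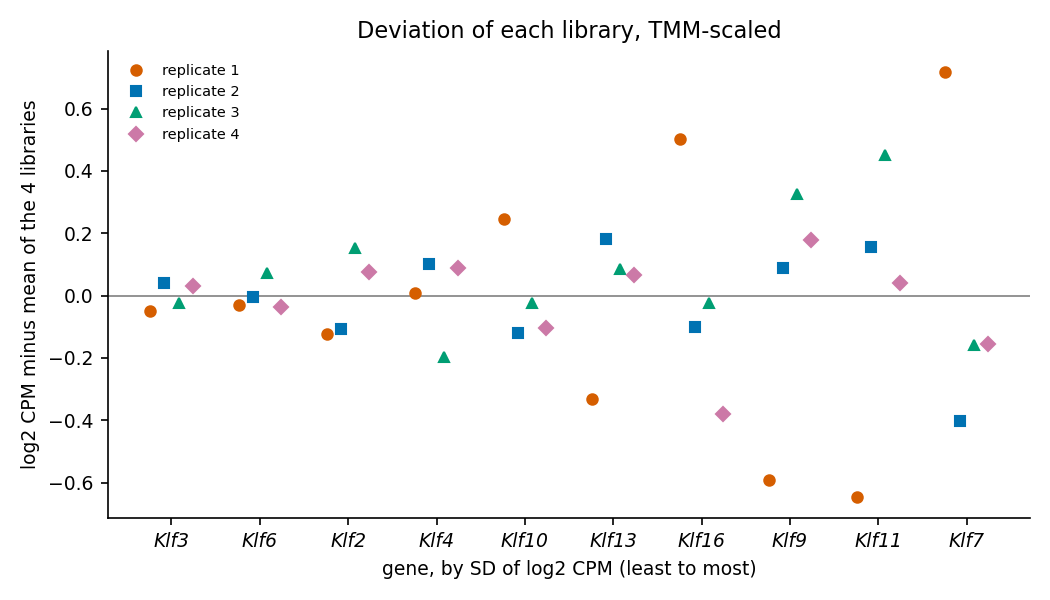
Deviation of each replicate's log2 CPM from the mean of the 4 replicates, for each member, with members ordered left to right by their SD. The points of Klf3 (SD 0.044) and Klf6 (0.050) lie close to 0, and those of Klf7 (0.492), with replicate 1 on top, lie widest apart.

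With 1 group, the only comparison open was each replicate against the other 3. The lone library has no replicate of its own, so a call says only that this library differs from the spread of the other 3. In the tests of replicates 2, 3 and 4 the other 3 include replicate 1, which stood apart and widens their spread. The standard error (SE) of every member's fold was larger there, that of Klf7 being 0.44, 0.51 and 0.50, against 0.13 for replicate 1. A lack of calls there therefore does not show that replicates 2, 3 and 4 agree. Replicate 1 against the others moved members both ways: Klf7 and Klf16 were higher in it, and Klf9, Klf11 and Klf13 were lower. By edgeR's quasi-likelihood test, adjusted over 14041 genes by the Benjamini-Hochberg method, 5 of 10 members were called, 2 higher and 3 lower, where 22.0% of all genes were called, 14.5% higher and 7.58% lower. Without adjustment 6 members had p under 0.05. The median log2 fold of the members was -0.05, beside -0.0046 over all genes. For replicates 2, 3 and 4, 0 members were called, 0 had an unadjusted p under 0.05 and DESeq2 also called 0. There 0% of all genes were called by edgeR, with 277, 135 and 104 genes at an unadjusted p under 0.05, and DESeq2 called 8, 3 and 17 genes.

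Klf7 had 43.9 CPM in replicate 1, against 20.2, 23.9 and 23.9 CPM in replicates 2, 3 and 4. Replicate 1 stood clear of the other 3, a log2 fold of 0.95 ± 0.13 (SE, adjusted p = 0.00974 by edgeR's quasi-likelihood test). Its call held under every alternative tried, with adjusted p between 6.8e-06 and 0.0225. Klf16, a Sin3A-binding member, had 19.3 CPM in replicate 1, against 12.7, 13.4 and 10.5 CPM in the others. That was a log2 fold of 0.67 ± 0.16 (edgeR adjusted p = 0.0418), and with upper quartile scaling it was 0.58 with an adjusted p of 0.0569, the highest of a range that began at 0.0139. Klf10 leaned the same way, with 50.2 CPM against 38.9, 41.6 and 39.4 CPM, but did not pass (log2 fold 0.33 ± 0.09, edgeR adjusted p = 0.0580).

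On the lower side, Klf11 had 5.95 CPM in replicate 1, against 10.4, 12.8 and 9.59 CPM in replicates 2, 3 and 4. The log2 fold was -0.87 ± 0.21 (edgeR adjusted p = 0.0402). Klf9 had 4.60 CPM in replicate 1, against 7.41, 8.74 and 7.89 CPM, a log2 fold of -0.80 ± 0.17 (edgeR adjusted p = 0.0326). Klf13 had 133 CPM in replicate 1, against 189, 177 and 175 CPM, a log2 fold of -0.44 ± 0.10 (edgeR adjusted p = 0.0341). For all 3 genes replicate 1 lay below every other library. The calls sat near the threshold: in the target tables Klf11 (edgeR adjusted p = 0.0762), Klf9 (0.0778) and Klf13 (0.228) were not called, and 2 members remained past it, Klf7 and Klf16. Leaving out replicate 3 ended the calls of Klf9 (edgeR adjusted p = 0.0582) and Klf13 (0.0603) and brought the count to 3, and leaving out replicate 2 ended that of Klf13 (0.0754). Over all alternatives the adjusted p ran between 0.0133 and 0.0762 for Klf11, between 0.0250 and 0.0778 for Klf9 and between 0.0011 and 0.228 for Klf13.

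The other members stayed within the spread in replicate 1. Klf2 had a log2 fold of -0.17 ± 0.13, Klf3 of -0.07 ± 0.08, Klf6 of -0.04 ± 0.11 and Klf4 of 0.01 ± 0.24, with edgeR adjusted p of 0.419, 0.590, 0.794 and 0.990. Replicate 1 also stood apart in genes of cell division. The 12 genes listed for DNA replication and mitosis, among them Mki67 and Top2a, summed to 451 TPM in replicate 1, against 109, 111 and 149 TPM in replicates 2, 3 and 4, and 11 of them were called higher, with a median log2 fold of 2.21. This list was chosen after results were known. Of 10 macrophage markers, the integrin gene Itgam was called higher in replicate 1 (log2 fold 1.02 ± 0.10, edgeR adjusted p = 0.0053) and the receptor gene Mertk lower (-0.81 ± 0.15, 0.0234). Of 4 endothelial markers tested, Cdh5 was called higher (2.02 ± 0.51, edgeR adjusted p = 0.0472), at 70 counts against 29, 23 and 18, and Vwf lower (-0.998 ± 0.235, 0.0397). The part of cell division, of these markers and of the lower depth of replicate 1 in the members' differences was not tested.

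**Figure D3:**
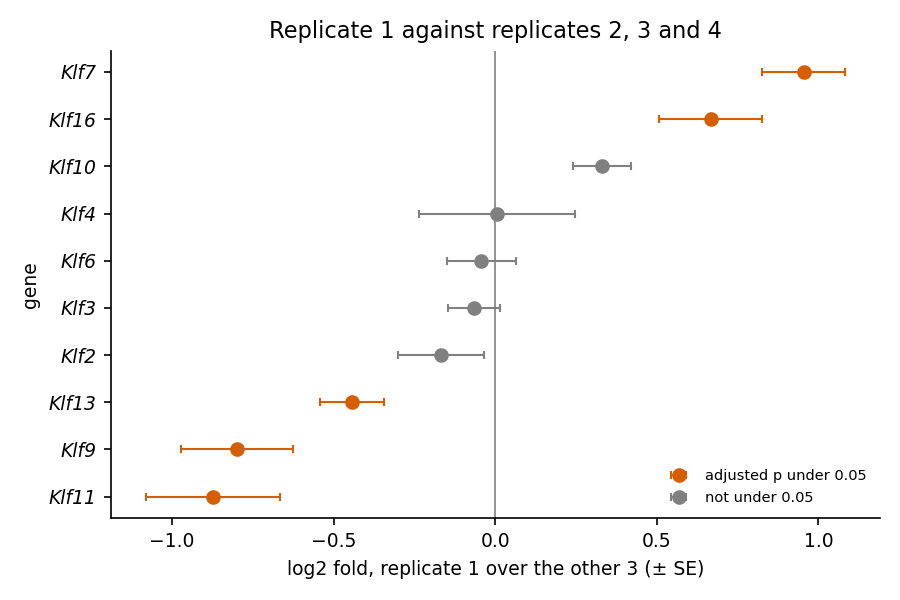
Log2 fold of each member in replicate 1 over the other 3 replicates, with bars of 1 standard error and orange points where the adjusted p was under 0.05 and grey ones where it was not. Klf7 at 0.95 and Klf16 at 0.67 lie above 0, and Klf13 at -0.44, Klf9 at -0.80 and Klf11 at -0.87 lie below it.

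The genes whose profile over the 4 libraries lay closest to a member were found for the 4 members with the widest spread, among the 10420 genes averaging 100 counts or more. The measure was the root mean square difference of centred log2 CPM over 4 libraries. Closest to Klf7 were Slf1 (0.0345), Hist2h2bb (0.0424) and Ada (0.0460). Closest to Klf16 were Flrt2 (0.0072), Eif3b (0.0114) and Gdpd5 (0.0147). Closest to Klf11 were H2-Ab1 (0.0269), Axl (0.0368) and Ddit3 (0.0460), and closest to Klf9 were Slc44a2 (0.0259), Zmynd15 (0.0307) and Inpp5j (0.0339). With 4 points and so many genes, close matches are easily found.

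Most members were expressed as 1 leading transcript. The deposited isoform percent, the share of a gene's TPM in each transcript, was 100 in all libraries for Klf2-201, Klf4-201, Klf9-201, Klf11-201 and Klf16-201. For Klf2 and Klf16 that value was fixed, since each has only 1 annotated transcript. It averaged 95.7 ± 3.45% for Klf6-201, 94.1 ± 3.52% for Klf13-201 and 92.3 ± 2.64% for Klf3-201 (SD, n = 4). For Klf3-201 it was 96.2% in replicate 1, against 90.4%, 91.2% and 91.4% in replicates 2, 3 and 4. Klf10 was the most mixed: Klf10-201 held 77.1%, 85.4%, 68.5% and 91.2% in replicates 1, 2, 3 and 4, and the nearly as long protein-coding Klf10-202 held 21.01%, 12.5%, 30.4% and 6.45%.

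By TPM, the target tables gave another leader for 2 genes. For Klf10 they put 56.9%, 54.0%, 63.7% and 88.0% of the gene's TPM in Klf10-204, a transcript of 326 bases that had at most 1.02 expected counts in the other tables. Its target counts were 92.8, 107, 179 and 912, so replicate 4 stood far above the others. By counts Klf10-201 still led in every library, with 1653, 1764, 1539 and 1839 target counts. For Klf7 the target tables put 54.7% on average in Klf7-203, of 553 bases, against 43.8% in Klf7-202, of 7662 bases. By counts the order was reversed: Klf7-203 had 40.6, 58.4, 113 and 98.8 target counts and Klf7-202 had 1615, 1133, 1048 and 1329. The leading isoform of Klf7 and Klf10 by TPM thus depends on the table, and the cause was not tested.

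**Figure D4:**
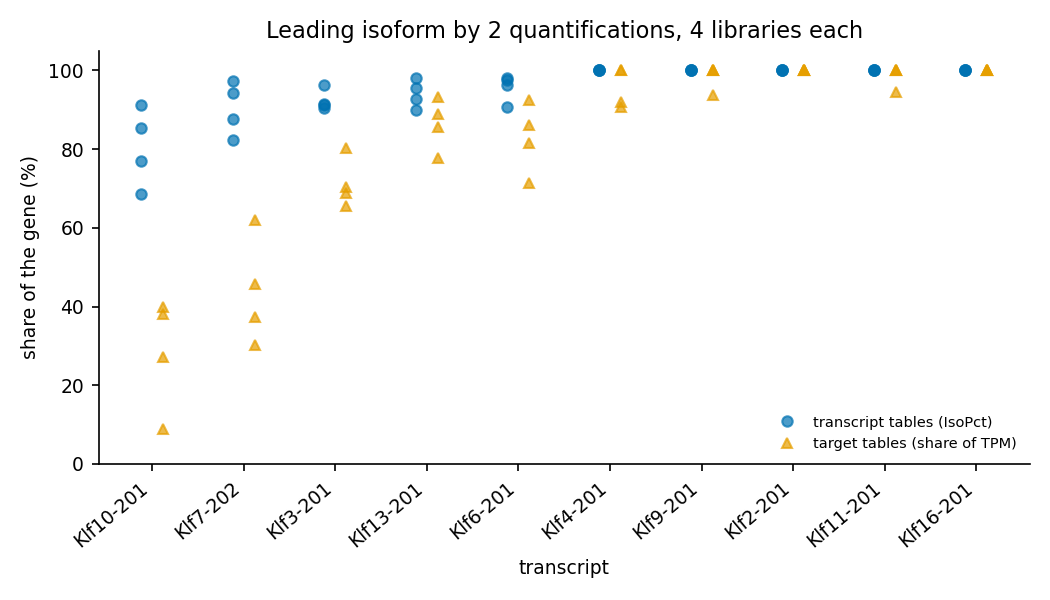
Share of each member's TPM, in percent, held by its leading transcript in the tables that give an isoform percent (circles) and held by the same transcript in the target tables (triangles), with 1 point per replicate. Both are 100% for Klf2 and Klf16, which have only 1 annotated transcript each. The 2 shares lie far apart for Klf7, with means of 90.4% and 43.8%, and for Klf10, with 80.5% and 28.5%.

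Klf3, Klf6 and Klf13 each have annotated transcripts that retain an intron, and these were low in replicates 1 and 2 for all 3 genes. In Klf3 they held 1.42%, 1.08%, 5.91% and 5.39% of the gene's TPM in replicates 1, 2, 3 and 4, from 32.0, 41.0, 160 and 195 expected counts. In Klf6 the share was 1.13%, 1.27%, 3.00% and 8.41%, and in Klf13 it was 1.02%, 0.75%, 3.95% and 3.75%. Replicates 3 and 4 were thus above replicates 1 and 2 in all 3 genes, with no test, since this division of the libraries was noticed in the data. The target tables gave the same split for Klf3 (3.15% and 3.11% against 6.01% and 5.19%), for Klf6 (7.54% and 4.14% against 9.66% and 16.9%) and for Klf13 (1.09% and 0.727% against 4.52% and 4.38%), each time with replicates 1 and 2 first and replicates 3 and 4 after. Malat1, a long noncoding RNA held in the nucleus, moved the same way, at 306, 242, 984 and 941 TPM in replicates 1, 2, 3 and 4, and so did Neat1, the scaffold of nuclear paraspeckles, at 35.1, 25.04, 115 and 79.4 TPM. The part of nuclear RNA in the retained intron shares was not tested.

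**Figure D5:**
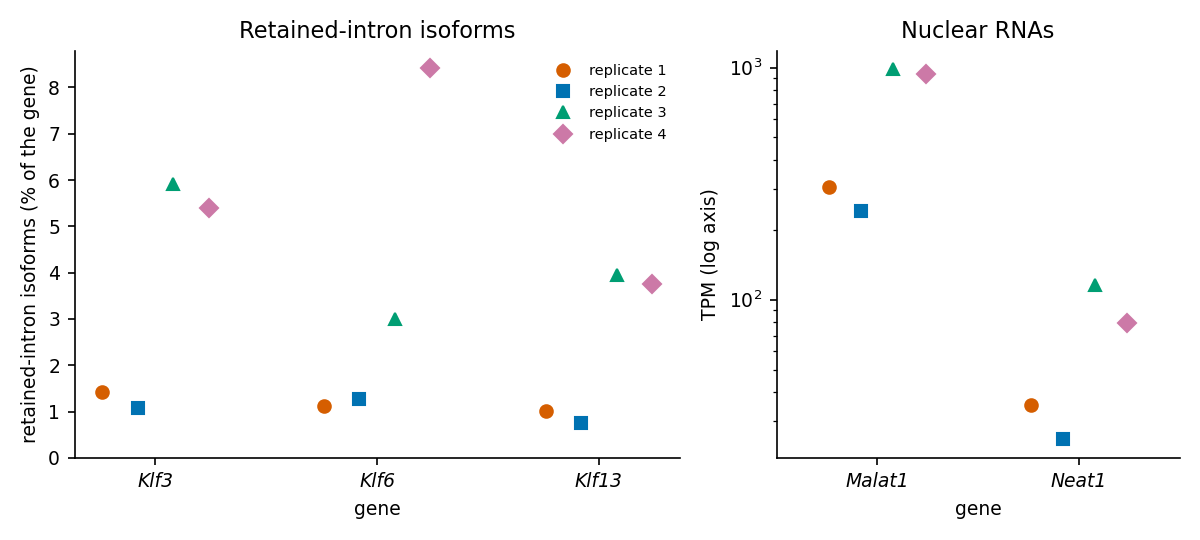
Share of the TPM of Klf3, Klf6 and Klf13 in transcripts that retain an intron, in percent (left), and the TPM of the nuclear RNAs Malat1 and Neat1 on a log axis (right), with 1 point per replicate. Replicates 3 and 4 lie above replicates 1 and 2 in each.

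Of the 7 other Klf genes listed, 0 averaged 1 TPM. In the gene tables Klf8, a CtBP-binding repressor, was the highest at 0.293 TPM with 60 to 126 counts a library. Klf1, the erythroid activator, had 1, 4, 3 and 1 counts, Klf5 between 2 and 3, Klf12 between 0 and 3, Klf14 between 0 and 2, and Klf15 between 4 and 11, while Klf17 was listed at 0. In the target tables Klf12, a CtBP-binding repressor too, was the highest at 0.271 TPM with 19, 35, 38 and 61 counts, and Klf8 averaged 0.200 TPM. The tests given next used counts of the gene tables, and the target counts of Klf12 did not enter them. Only Klf8 had enough counts to test, and it was not called in any comparison, by edgeR or DESeq2, nor at an unadjusted p under 0.05. The Sp proteins bind the same GC boxes, and 4 of their 9 genes averaged 1 TPM, led by Sp3 at 19.3 ± 4.79 and Sp1 at 11.3 ± 2.73 TPM. These 4 were tested, and 0 were called in any comparison by edgeR or DESeq2 or had an unadjusted p under 0.05.

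All 18 partners and regulators of the family averaged at least 1 TPM. Wwp1, a ubiquitin ligase that marks Klf2 for degradation, was the highest at 82.2 ± 18.4 TPM, followed by the corepressor Ctbp1 at 42.7 ± 10.8 TPM. In replicate 1, 4 of the 18 were called higher and 1 lower by edgeR, a share near the 22.0% of all genes, and DESeq2 called 7. Mef2a, a factor that acts upstream of Klf2 and Klf4, had 48.1 TPM in replicate 1, against 17.6, 15.2 and 28.4 TPM in the others, a log2 fold of 1.03 ± 0.14 on the CPM scale. The deacetylase genes Hdac2 and Hdac1 had log2 folds of 0.71 ± 0.10 and 0.55 ± 0.09, Ctbp2 of 0.34 ± 0.08, and Ep300, which encodes p300, of -0.42 ± 0.10.

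Of 12 genes known as targets of these factors in one cell type or another, 8 averaged 1 TPM. Mrc1, the mannose receptor that marks alternative activation, was the highest at 147 ± 67.4 TPM, and the cell cycle inhibitor Cdkn1a followed at 76.4 ± 21.2 TPM. Retnla was listed at 0 in all libraries. In replicate 1, 3 of the 10 tested were called higher and 2 lower by edgeR, where 22.0% of all genes were called, and DESeq2 called 6. Smad7, an inhibitor of transforming growth factor beta signalling that Klf10 and Klf11 are known to repress, had 1.91 TPM in replicate 1, against 0.32, 0.43 and 0.52 TPM in replicates 2, 3 and 4, a log2 fold of 1.91 ± 0.36 on the CPM scale. S1pr1, the lymphocyte egress receptor that Klf2 activates in T cells, had 25.7 TPM in replicate 1, against 9.43, 9.51 and 11.0 TPM, a log2 fold of 1.11 ± 0.15. The fold of Mrc1 was 0.86 ± 0.14, that of the cell cycle inhibitor Cdkn1b was -1.01 ± 0.19, and that of Tsc22d3, a glucocorticoid-induced gene, was -0.55 ± 0.12. For replicates 2, 3 and 4, 0 genes of either list were called by edgeR or DESeq2 or had an unadjusted p under 0.05.

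The immediate early genes respond within minutes of stimulation. Their sum was 789, 451, 996 and 1298 TPM in replicates 1, 2, 3 and 4, lowest in replicate 2. In replicate 1, 4 of the 19 tested were called by edgeR, Myc (log2 fold 2.84 ± 0.18) and Fosl2 (0.79 ± 0.17) higher, and Egr3 (-4.18) and Atf3 (-1.02) lower. That share is near the 22.0% of all genes, and DESeq2 called 6. For replicates 2, 3 and 4 edgeR called 0, with 4, 0 and 1 of the 19 at an unadjusted p under 0.05, and DESeq2 called 1, 0 and 0.

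Some counts may be shared with overlapping genes, since whether counting used strand is not given. Gm26649, which overlaps Klf7 on the other strand, had counts equal to 7.87% of those of Klf7, with 112 in replicate 1 and 86, 62 and 84 in replicates 2, 3 and 4. Gm20033 and C230096K16Rik over Klf3 had 0.519% and 0.888% of its counts, and Gm27252 and E030018B13Rik over Klf13 had 0.050% and 0.125%. The small RNAs Mir6899 and Mir1192 and the antisense Gm13748 had 0 counts.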

How the data were processed

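Total RNA of 4 libraries of 1 group was measured, 30088678, 47961117, 40282297 and 45771235 expected counts in replicates 1, 2, 3 and 4. The gene tables hold expected counts and TPM as deposited by the authors, and the transcript tables also hold the isoform percent, per the file headers. The target tables hold estimated counts and TPM per transcript, per the file headers. The build is mm10 with the GENCODE M21 annotation, per the text deposited beside the tables. The sources used here name no aligner or quantifier and do not state use of strand. Overlapping and antisense genes may therefore share reads. Features that name no gene held 0.407%, 0.224%, 0.177% and 0.0267% of the counts and were left out.

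Expected counts were rounded. Genes averaging 10 or more counts entered the test in edgeR 4.0.16 (R 4.3.3) after TMM scaling, each replicate against the other 3, with calls at a Benjamini-Hochberg adjusted p under 0.05 over all genes tested. A replicate tested alone contributes no residual degree of freedom and is assumed to vary like the other 3. The SE of a fold was its size divided by the square root of F. The common coefficient of variation between libraries was 0.327. Whether a gene varied more than counting allows was judged from its Poisson deviance, and neighbours in the order of levels by exact two-sided sign-flip permutation of log2(TPM + 1). Alternatives were DESeq2 1.42.0, upper quartile scaling, no low-count filter, the target tables, TPM without 7SL RNA genes, a pseudocount of 0.1, a filter at 1 TPM and leaving out each replicate. The edgeR step was tested on simulated data with 1 coefficient of variation for every gene, smaller than that of these data. That test therefore does not give the error rate at the spread seen here. Floors are 3 counts a library. They cover counting error only, because without molecular identifiers several reads can stem from 1 molecule. Other steps used Python 3.11.15, numpy 2.4.6, pandas 2.3.3 and matplotlib 3.10.9.

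The members and lists were chosen with earlier results of these data known. The text names all 10 members, the 2 most abundant genes of each related list and those that edgeR called in any comparison, and the 3 nearest profiles of the 4 most variable members. Retnla, the low Klf genes and those named among the immediate early genes, the markers, the overlapping genes, the cell division genes and the nuclear RNAs fall outside this rule and were chosen after their values were seen.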

Additional observations from a re-analysis of the deposited data

Results flagged for a closer look

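TPM, CPM and leading isoform percent of each member gave 30 values, of which 5 isoform percents were equal in every library and 25 could vary. Of these 25, 3 had 1 library far from the other 3, where chance gives about 1 in 20 for independent values. CPM and TPM of a gene share the same counts, so the 3 flags cannot be judged by that rate. Klf7 in replicate 1 had 43.9 CPM, against 20.2, 23.9 and 23.9 CPM in replicates 2, 3 and 4. Klf13 in replicate 4 had 22.8 TPM, against 14.6, 15.8 and 15.1 TPM in replicates 1, 2 and 3, although in CPM, with 175 in replicate 4, it was replicate 1 at 133 that stood lowest. The leading transcript of Klf3 held 96.2% of the gene's TPM in replicate 1, against 90.4%, 91.2% and 91.4% in the others.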

How the results depend on the processing

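For replicate 1, 5 members were called, and 2 in the target tables, 4 with upper quartile scaling, 5 with DESeq2, 5 with no filter, and 3 to 5 when a replicate was left out. No member changed direction past the threshold, and Klf7 kept its call under all 7 alternatives. For replicates 2, 3 and 4 the count was 0 under every alternative. Members varying beyond counting were 9, and 7 to 10 under the alternatives. Of 9 neighbouring pairs, 8 kept 1 order in every library, 5 in the target tables and 8 to 9 with a replicate left out. Over all genes, replicate 1 gave 2031 higher and 1065 lower calls, against 1561 and 1379 with upper quartile scaling, 1890 and 1383 with DESeq2 and 2223 and 520 in the target tables. Leaving out replicate 1 gave 82 calls for replicate 2, against 0. Mean TPM moved beyond its SD for 9 of 10 members in the target tables and for 10 of 10 without 7SL RNA genes. The cause of the differences between the tables was not tested. No paired analysis was possible because the libraries form 1 group. The calls rest on 3 libraries' spread and 1 lone library, and 190 counts of Klf11 or 147 of Klf9 in replicate 1 limit their precision.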
